A study of Mus musculus with 6 samples.

Results

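Proliferating fibroblasts of the newborn mouse sciatic nerve are the connective tissue cells that carried cell-cycle transcripts at postnatal day 1 (P1). A cell was counted as one of them when its barcode came from a P1 library, held 500 to 5000 detected genes and met limits on raw counts of unique molecular identifiers (UMIs, each standing for 1 captured RNA molecule). The limits were at least 10 UMIs of Col1a2, at least 3 UMIs of Mki67, Top2a, Birc5 and Cdk1 in sum, no UMI of Sox10, Pecam1 or Ptprc, and at most 2 of Rgs5. They left 921 cells, of 11735 P1 barcodes within the gene limits and 24337 such barcodes in the series. Measured values of these 9 genes chose the cells, so the genes are described below with no test. The comparison class, called resting fibroblasts here, met the same limits with none of the 4 cycle genes detected and held 4031 cells. A further 1070 fibroblasts with 1 or 2 cycle UMIs belong to neither class.

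The series holds 3 P1 and 3 P60 (postnatal day 60) single-cell libraries of sciatic nerve, made on the 10x Chromium platform with 3' reagents. The mice carried a P0Cre allele, which recombines in Schwann cells, with a Cre-dependent ReYFP reporter and a βAct-DsRed transgene on a C57bl/6J background. Each library was an independent suspension pooled from male and female mice. DsRed-positive cells were sorted, and at P1 the sort also restricted DsRed and eYFP double-positive Schwann cells, so shares below are shares of the cells that passed it.

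Nerve fibroblasts lie in 3 layers: the endoneurium between the axons, the perineurium that sleeves each fascicle, and the epineurium outside it. The nerve still grows after birth, and its sheaths mature over that time. In a dividing cell, genes of DNA synthesis are switched on by E2F factors around S phase, and genes of spindle assembly and division follow in G2 and M phase under the DREAM and MuvB complexes. Many of the late genes carry a cell-cycle homology region (CHR) and CCAAT boxes near their start sites.

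The promoters of the 4 cell-cycle markers of these cells are shown because S-phase and late cycle genes differ in such elements. Each runs from 250 bases before to 50 bases after a RefSeq start site (GRCm38.p6, gene strand, 5′ to 3′). Capitals mark the CHR word TTTGAA, the CCAAT box and 4 E2F words (TTTCCCGC, TTTGGCGC, TTTCGCGC and TTTGCCGC), each searched on both strands. The windows are chr9:70421505-70421804 on the minus strand (Ccnb2), chr13:51644982-51645281 on the plus strand (Cks2), chr9:65890073-65890372 on the plus strand (Pclaf) and chr11:117848987-117849286 on the plus strand (Birc5).
Ccnb2: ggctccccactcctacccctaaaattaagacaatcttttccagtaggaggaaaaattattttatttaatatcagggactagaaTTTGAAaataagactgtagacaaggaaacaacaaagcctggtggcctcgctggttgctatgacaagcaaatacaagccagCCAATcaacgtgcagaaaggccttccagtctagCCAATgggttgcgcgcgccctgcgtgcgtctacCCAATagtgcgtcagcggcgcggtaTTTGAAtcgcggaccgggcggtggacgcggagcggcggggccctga
Cks2: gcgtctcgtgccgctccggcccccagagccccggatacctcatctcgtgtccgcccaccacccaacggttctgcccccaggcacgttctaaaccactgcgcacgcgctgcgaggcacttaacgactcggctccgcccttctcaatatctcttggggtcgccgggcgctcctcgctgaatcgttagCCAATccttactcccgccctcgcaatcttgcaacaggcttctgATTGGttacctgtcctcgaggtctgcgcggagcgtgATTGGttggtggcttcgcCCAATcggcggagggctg
Pclaf: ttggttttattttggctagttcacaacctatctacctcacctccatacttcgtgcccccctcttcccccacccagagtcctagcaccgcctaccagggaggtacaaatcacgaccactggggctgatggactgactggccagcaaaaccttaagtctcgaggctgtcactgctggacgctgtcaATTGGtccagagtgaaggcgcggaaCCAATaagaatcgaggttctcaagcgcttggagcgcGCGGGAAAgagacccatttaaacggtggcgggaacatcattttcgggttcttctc
Birc5: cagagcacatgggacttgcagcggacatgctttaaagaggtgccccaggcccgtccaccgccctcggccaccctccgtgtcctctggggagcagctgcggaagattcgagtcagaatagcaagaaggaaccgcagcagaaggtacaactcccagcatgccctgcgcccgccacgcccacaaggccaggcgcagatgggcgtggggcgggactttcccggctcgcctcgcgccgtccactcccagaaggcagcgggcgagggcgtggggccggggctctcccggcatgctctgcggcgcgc

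The Ccnb2 window holds 2 CHR words, of which 1 lies 4 bases after the start, and 3 CCAAT boxes at 87, 54 and 21 bases before it. The Cks2 window holds 4 CCAAT boxes and no CHR word, and the Pclaf window holds 2 CCAAT boxes and 1 E2F word 5 bases before the start. None of these words is in the Birc5 window. Over the lists of cycle genes, 32 of 47 matched promoters of G2/M genes (68.1%) held the CHR word, against 5 of 31 promoters of S genes (16.1%). The share was 11.7% over 9412 genes tested here with 1 promoter each, and 17.9% of all 32851 promoters in the table. The E2F words stood in 11 of the 31 S-gene promoters (35.5%), in 2 of the 47 G2/M promoters (4.26%), in 4.33% of those of genes tested and in 2.26% of all promoters. CCAAT boxes were found in 76.6% of G2/M, 71.0% of S, 39.1% of tested and 37.4% of all promoters. A match describes letters in a window and is not a measured binding site.

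The P1 libraries held 3495, 4197 and 4043 barcodes within the gene limits and 26685231, 27461377 and 30334608 UMIs in total. Proliferating cells had median UMIs of 9356, 7358 and 8440 in replicates 1 to 3, and resting fibroblasts 6974.5, 6355 and 7118. Between 13 and 26 barcodes were shared by any pair of P1 libraries, and 1 barcode belonged to proliferating cells of both. Fibroblast markers were abundant in the proliferating cells. Decorin, lumican, collagens I and III and the receptor Pdgfra summed to 26419.6, 24384 and 25956 CPM (UMIs scaled to 1000000 per sum of cells) in the cycling cells, and to 27832, 27411 and 28228 CPM in the resting cells. Pdgfra alone stood at 181, 134 and 151 CPM in cycling and 187, 144 and 139 CPM in resting cells, overlapping ranges.

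Cycling cells made up a similar share of the fibroblasts in each newborn library. In replicates 1 to 3 they were 267 of 1777 (15.0%, exact 95% binomial interval 13.4 to 16.8%), 337 of 2127 (15.8%, 14.3 to 17.5%) and 317 of 2118 (15.0%, 13.5 to 16.6%), a mean of 15.3% ± 0.49 (SD, n = 3 libraries). These intervals cover counting error only. At P60 the same limits found 7 of 1211, 4 of 1183 and 4 of 1204 fibroblasts, a mean of 0.416% ± 0.14 (SD, n = 3), and the ages did not overlap. Resting fibroblasts were shallower at P60, with median UMIs of 4769 to 6260 against 6355 to 7118 at P1.

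The cycle genes of the rule were present at several UMIs in most cells. Mki67, a protein that coats the chromosomes of dividing cells, stood at 238, 249.9 and 199 CPM in the cycling cells of replicates 1 to 3, and Top2a, which untangles replicated DNA, at 462, 493 and 421 CPM. Birc5, the survivin subunit of the chromosomal passenger complex, stood at 524, 547 and 502 CPM, and Cdk1, the kinase that starts mitosis, at 418, 419 and 368 CPM. A cell held a median of 8 such UMIs (3 to 72), with 120 cells at exactly 3 and 628 at 6 or more. Col1a2, the collagen chain of the rule, was at 8398, 7650.4 and 8044 CPM in cycling and 8531, 8291 and 8657 CPM in resting cells.

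**Figure D1:**
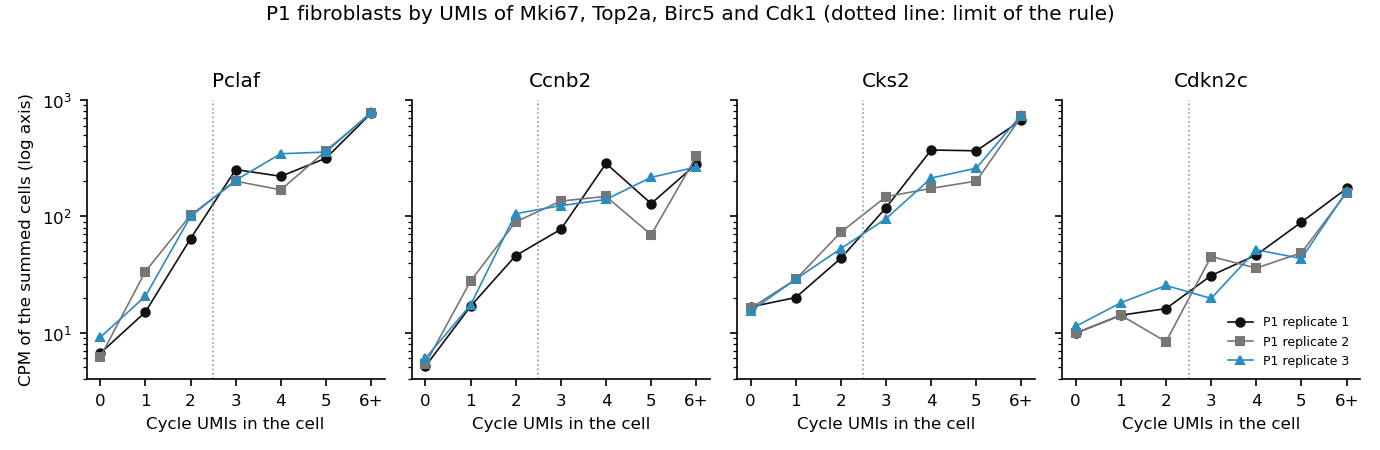
CPM (log axis) of Pclaf, Ccnb2, Cks2 and Cdkn2c over P1 fibroblasts summed by the number of UMIs of the 4 cycle genes in the cell, with 1 line per library and a dotted line at the limit of the rule. Pclaf stood at 6.62, 6.12 and 9.08 CPM in cells with none and 772, 773 and 788 CPM in cells with 6 or more.

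The other markers of the class were close to absent from resting cells, which is a description, because cycle genes go with the choice of the cells. Pclaf, a partner of the replication clamp PCNA (9:65890237-65903266, GRCm38), was at 675, 647 and 636 against 6.62, 6.12 and 9.08 CPM in cycling against resting sums. Ccnb2, a mitotic cyclin (9:70407692-70421547), was at 259.9, 281 and 231 against 5.11, 5.36 and 5.99 CPM, and Cks2, a subunit of the cyclin-dependent kinases (13:51645232-51650660), at 597, 596 and 574 against 16.6, 16.2 and 15.3 CPM. Pclaf, Cks2, Col1a2 and Top2a each overlap a small annotated gene on the same strand, whose reads cannot be set apart. Just outside the limit, cells with 2 cycle UMIs held 64.2, 102 and 99.7 CPM of Pclaf, and just inside it, cells with 3 held 253, 201 and 205 CPM. For Ccnb2 the same cells held 45.9, 89.7 and 106 CPM and 77.3, 135 and 124 CPM. The limit therefore cuts a range, as the plot by cycle UMIs shows.

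All 186 tested genes of the cycle lists had a higher level in cycling than in resting cells, with a median log2 fold change of 4.34, where the median over all 12589 genes tested was 0.01. The S list (43 genes) had a median of 2.55 and the G2/M list (50 tested of 54) a median of 5.56. Among abundant members, the histone variant H2afz was at 2638, 2653 and 2549.9 against 370.3, 362 and 359 CPM and the chromatin protein Hmgb2 at 1473, 1380.3 and 1318 against 106, 96.1 and 107 CPM. Stmn1, a tubulin-binding protein, was at 1703, 1734 and 1568 against 162, 152 and 159 CPM, and Rrm2, the ribonucleotide reductase subunit of S phase, at 315, 313 and 288 against 6.97, 6.56 and 8.40 CPM. The 4 genes of the rule act from S phase to mitosis, so cells in G1 fall in the resting class. With each cell thinned to 2000 UMIs, at least 5 UMIs of the S list were found in 56.6, 54.9 and 54.3% of cycling cells and in 3.45, 3.70 and 3.80% of resting cells.

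The layer leaning of the cycling cells differed most for the epineurium. Each cell was thinned to 2000 UMIs and scored by lists of endoneurial, perineurial and epineurial genes, and it leaned to a layer where that score was above 0 and led the next by at least 0.2 (in SDs of the resting cells, averaged over genes). Cycling cells leaned to the epineurium in 8.99, 8.52 and 10.4% of cells, and resting cells in 29.1, 28.3 and 27.0%, a difference of −18.8 percentage points (SD 1.93, n = 3). They leaned to the endoneurium in 29.6, 30.9 and 27.1% against 21.4, 20.03 and 23.6% (difference 7.53, SD 3.71) and to the perineurium in 22.5, 18.3 and 22.1% against 16.5, 15.8 and 14.5% (difference 5.36, SD 2.61). Cycling and resting libraries did not overlap in any of these shares. The exact two-sided permutation test paired by library gave p = 0.25 for each, the smallest that 3 pairs allow. The endoneurial difference turned to −3.56 points (SD 3.63, p = 0.5 by the same exact test) against resting cells matched on UMIs. The epineurial share was lower in cycling cells under each alternative run, by −9.68 to −32.1 points. Against resting cells matched on UMIs the epineurial difference shrank from −18.8 to −10.4 points (SD 2.56). No leaning could be called for 39.0, 42.3 and 40.4% of cycling cells, and 243 of 901 scored cycling cells lay within 0.1 of the required lead.

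**Figure D2:**
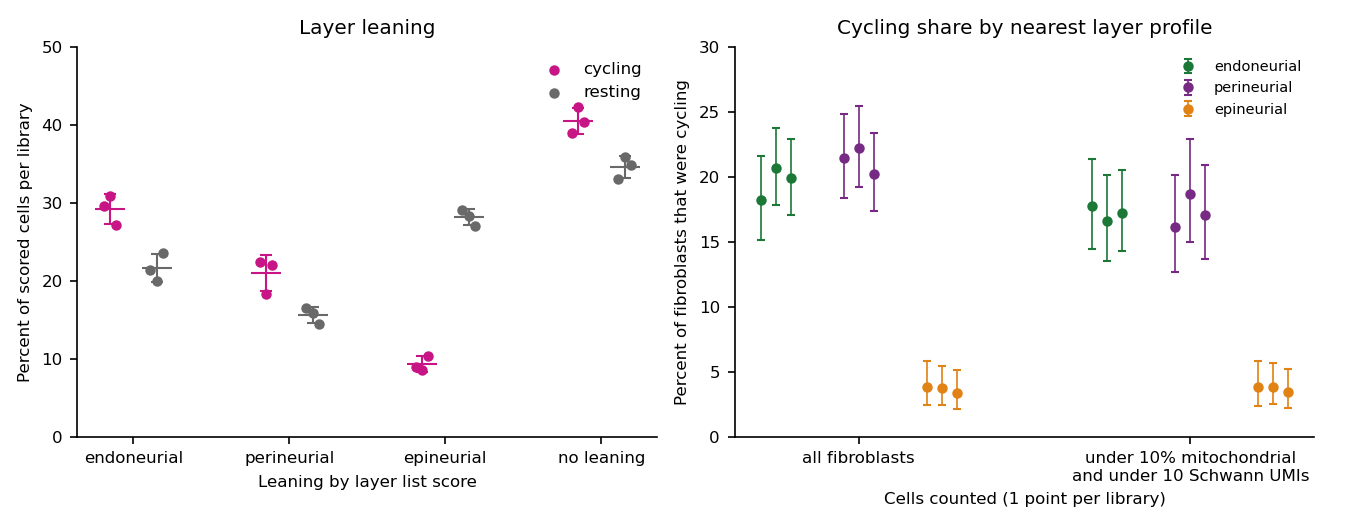
Left, percent of scored cycling and resting P1 fibroblasts that leaned to each layer (points, libraries; lines, mean ± SD, n = 3). Right, percent of fibroblasts nearest to each layer profile that were cycling, per library with exact 95% binomial intervals, for all fibroblasts and for those with under 10% mitochondrial counts and under 10 Schwann UMIs. On the right the epineurial points lie below 5% and all endoneurial and perineurial points above 15%.

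Every fibroblast was also given the nearest of 3 transcriptome-wide profiles, which for each library were built from the other 2 and rest on resting cells with at least 3 UMIs of 1 layer's seed genes and none of the other layers' (Sox9, Col2a1 and Osr2 for endoneurium, Slc2a1, Itgb4, Cldn1 and Ntn4 for perineurium, Ly6c1, Pcolce2, Pi16 and Dpp4 for epineurium). The seed genes, the genes of the rule and the cycle genes were left out of the profiles, and seed cells of the library not used were returned to their own layer in 97.2% (endoneurial), 92.4% (perineurial) and 98.0% (epineurial) of cases. The study also describes a fibroblast-related cluster outside these layers, so a forced choice of 3 is a limit. Cycling cells made up 18.2, 20.7 and 19.9% of fibroblasts nearest the endoneurial profile (19.6% ± 1.26, SD, n = 3), 21.5, 22.2 and 20.2% of those nearest the perineurial profile (21.3% ± 1.00) and 3.85, 3.72 and 3.40% of those nearest the epineurial profile (3.66% ± 0.24). Within a library the endoneurial share was 4.73 to 5.86 times and the perineurial share 5.58 to 5.98 times the epineurial share. The endoneurial share was below the perineurial one by a mean of −1.73 points (SD 1.46, range −3.27 to −0.355). Each of these 3 paired exact tests gave p = 0.25, the smallest possible. By number, 104, 153 and 148 cycling cells were nearest the endoneurial, 142, 159 and 147 the perineurial and 21, 25 and 22 the epineurial profile.

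Depth and mitochondrial counts moved with these shares, and their part in the differences was not tested beyond the values given here. Fibroblasts nearest the endoneurial profile had median UMIs of 9660, 8073 and 9099, perineurial ones 6978, 6171 and 7067, and epineurial ones 6378, 6104.5 and 6465.5. With each cell thinned to 2000 UMIs, the share with at least 1 cycle UMI was 23.6% ± 2.39 for endoneurial, 26.2% ± 0.87 for perineurial and 8.73% ± 0.59 for epineurial cells (SD, n = 3). Mitochondrial transcripts made up 10% or more of the UMIs in 24.7, 34.1 and 27.1% of cycling cells and in 9.66, 14.7 and 10.6% of resting cells, and such cycling cells had median UMIs of 2859, 2439 and 2763.5. By nearest profile, the share of cycling cells with such counts was 9.62, 39.9 and 26.4% (endoneurial), 39.4, 33.3 and 31.3% (perineurial) and 0, 4 and 4.55% (epineurial), and that of resting cells 10.7, 23.4 and 13.6%, 18.6, 22.8 and 18.8%, and 0.459, 0.750 and 0.780%. Among fibroblasts under 10% the cycling share was 12.9, 12.7 and 12.6%. At least 10 UMIs of 7 Schwann genes were found in 13.1, 15.1 and 13.6% of cycling and 10.3, 9.86 and 9.29% of resting cells. Most were nearest the perineurial profile, where they made up 19.7, 24.5 and 22.4% of cycling and 24.7, 21.4 and 24.3% of resting cells, against 5.77 to 7.84% and 2.61 to 6.76% for the endoneurial and 0 to 4.76% and 1.17 to 2.98% for the epineurial profile. Without both kinds of cells, and without mitochondrial genes in the profiles, the cycling shares were 17.2% ± 0.55 (endoneurial), 17.3% ± 1.30 (perineurial) and 3.71% ± 0.23 (epineurial).

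Epineurial marker genes fell in the cycling cells almost as a group. Counts were summed per library and class and tested with edgeR's quasi-likelihood test, with the library as a block and Benjamini-Hochberg adjusted p under 0.05 as the call. Over 12589 genes outside the rule 42.9% passed (22.6% higher and 20.3% lower in cycling cells). Of the 12 epineurial genes 11 were lower and 1 was higher, with a median log2 fold change of −1.34. Pi16, a marker of adventitial fibroblasts, was at 30.8, 31.5 and 39.2 against 162, 172 and 157 CPM in cycling against resting sums (5.03-fold lower, log2 −2.33 ± 0.084 SE, adjusted p = 1.2e-14). Ly6c1 was at 28.7, 27.1 and 26.2 against 97.1, 104 and 95.1 CPM (log2 −1.91 ± 0.076) and Ly6a, the Sca-1 antigen, at 145, 128 and 129 against 499.6, 502 and 462 CPM (log2 −1.92 ± 0.054). Clec3b, the plasminogen-binding protein tetranectin, was at 362, 313 and 342 against 910.2, 995 and 951 CPM (log2 −1.55 ± 0.049), and the matrix protein dermatopontin, Dpt, at 35.2, 19.1 and 27.3 against 119, 119 and 103 CPM (log2 −2.13 ± 0.11). The classes did not overlap for any of these 5 genes, which was also true of 51.5% of all genes tested. Pcolce2 (log2 −2.05), Tnxb (−1.12), Dpp4 (−1.11), Sema3c (−0.96), Mfap5 (−0.83) and Cd248 (−0.65) fell as well. The chemokine scavenger receptor Ackr3 rose, at 34.4, 51.0 and 49.7 against 26.7, 27.4 and 33.5 CPM (log2 0.56 ± 0.10).

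Endoneurial and perineurial markers were less uniform. Of 10 endoneurial genes 8 were tested, of which 3 were higher and 1 was lower (median log2 fold change 0.16). Sox9, a transcription factor of endoneurial fibroblasts, was at 139, 125 and 124 against 87.0, 90.9 and 96.9 CPM (log2 0.44 ± 0.068, adjusted p = 2.9e-05 by edgeR), and the ETS factor Etv1 at 116, 107 and 109 against 78.1, 79.8 and 85.9 CPM (log2 0.38 ± 0.064). Wif1, a secreted Wnt inhibitor, was low in both classes, at 5.67, 6.78 and 5.98 against 1.63, 2.52 and 1.84 CPM (log2 1.56 ± 0.30). The collagen Col2a1 was called lower at 60.3, 62.6 and 60.5 against 68.9, 68.8 and 63.9 CPM (log2 −0.20), a call lost when any 1 library was left out (adjusted p = 0.0548 to 0.102, edgeR). Osr2 (log2 −0.11), Abca8a (0.10), Plxdc1 (0.14) and Abca9 (0.19) did not pass, and Trpm6 and Cpxm2 were below the filter on low counts.

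Of 9 perineurial genes 7 were tested, of which 5 were higher and none lower (median log2 fold change 0.43). The tight-junction protein claudin 1, Cldn1, was at 123, 107 and 119 against 86.2, 85.7 and 87.0 CPM (log2 0.37 ± 0.063), and the teneurin Tenm2 at 61.5, 70.2 and 73.6 against 43.0, 37.8 and 41.7 CPM (log2 0.69 ± 0.08). Msln, encoding mesothelin, was at 9.72, 4.38 and 7.47 against 2.09, 3.39 and 2.51 CPM (log2 1.36 ± 0.32). The glucose transporter Slc2a1 (log2 0.43) and the integrin Itgb4 (log2 0.55) were called by edgeR but not by DESeq2 (adjusted p = 0.276 and 0.28). Lypd2 (log2 −0.19) and Krt19 (−0.034) did not pass, and Ntn4 and Kcnj13 were below the filter. Against resting cells matched on UMIs the log2 fold changes of Sox9, Etv1 and Slc2a1 were −0.011, 0.00074 and −0.037, and none passed. Of the 8 endoneurial genes 1 was then higher and 4 were lower (median −0.14), so no direction is drawn for that list. Of the 7 perineurial genes 3 were higher and none lower (median 0.32). Of 11 epineurial genes tested against these matched cells 9 were lower and 1 was higher (median −0.86), and Dpp4 lost its call.

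**Figure D3:**
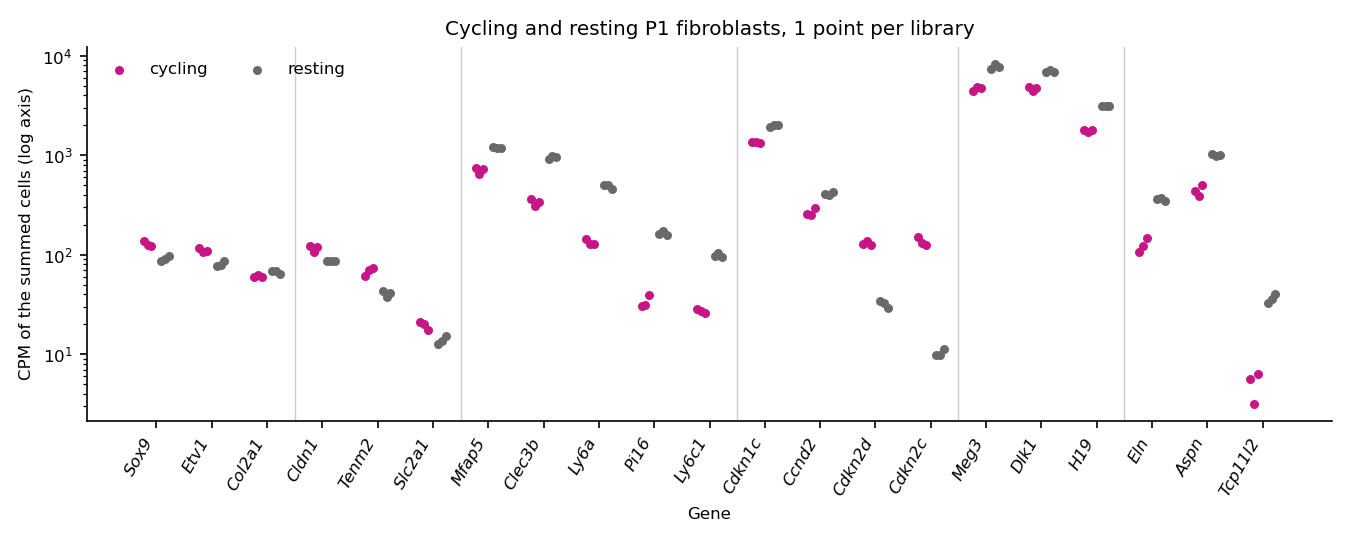
CPM per library (log axis) of 21 genes in cycling and resting P1 fibroblasts, with grey lines between endoneurial, perineurial, epineurial, cycle-regulator, imprinted and other genes. Each of the 5 epineurial genes drawn has its cycling points below its resting points, and Cdkn2c and Cdkn2d have the opposite order.

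Outside the rule and the cycle lists, 5216 of 12403 genes passed, 2663 higher and 2553 lower in cycling cells. Of these, 669 were higher and 424 lower by a log2 fold change of 1 or more. DESeq2 called 2605, each of which edgeR called as well, and 22.2% of all genes outside the rule. Of the 10 genes with the largest rise, Aspm, a spindle-pole protein, was at 54.7, 62.2 and 39.6 against 0.116, 0.437 and 0.386 CPM and Spag5, the spindle protein astrin, at 40.9, 65.4 and 36.6 against 0.581, 0.766 and 0.290 CPM. The mitotic kinesin Kifc1 (log2 5.97), the chromosomal passenger Incenp (log2 4.97), the ubiquitin-conjugating enzyme Ube2t (log2 4.80) and the nuclear importin Kpna2 (log2 4.51) were among them. Lockd, a long noncoding RNA next to Cdkn1b, was at 238, 220.0 and 201 against 8.71, 7.87 and 7.15 CPM (log2 4.73 ± 0.072). Sapcd2 (log2 5.93), C330027C09Rik (5.36) and Slfn9 (4.62) complete the 10. The cycle lists do not hold every cycle gene, and Aspm, Spag5, Kifc1 and Incenp are genes of division outside them. Like the listed cycle genes, such genes go with the choice of the cells, so the rise of these 10 is a description. How many of the 669 go with that choice was not tested.

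Of the 10 genes with the largest fall, Pi16, Ly6a, Ly6c1 and Dpt are the epineurial markers above. Tcp11l2 fell most, at 5.67, 3.19 and 6.35 against 32.8, 36.0 and 40.1 CPM in cycling against resting sums (7.43-fold lower, log2 −2.89 ± 0.17, adjusted p = 3.91e-11 by edgeR). Plac8 was at 25.5, 39.5 and 33.3 against 176, 208 and 199.7 CPM (log2 −2.64 ± 0.079), and Sfrp2, a secreted Wnt modulator, at 40.5, 28.3 and 38.5 against 169, 154 and 151 CPM (log2 −2.20 ± 0.083). The potassium channel Kcnj8 (log2 −2.33), Lrrn4cl (−1.96) and Efhd1 (−1.87) were the others.

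Regulators of the step from G1 to S did not move one way. Of 12 cyclin-dependent kinase inhibitors, D cyclins and their kinases, 3 rose, 5 fell and 4 did not pass, with a median log2 fold change of −0.07. Over all genes tested 22.6% rose and 20.3% fell. Cdkn2c, which encodes the CDK4 and CDK6 inhibitor p18 (4:109660876-109667189, GRCm38), was at 150.2, 133 and 125 against 9.87, 9.84 and 11.3 CPM in cycling against resting sums (12.5-fold higher, log2 3.64 ± 0.086). It stood at 30.9, 45.1 and 19.7 CPM in cells with 3 cycle UMIs and 174, 160 and 164 CPM with 6 or more. Its level thus goes with the choice of the cells, so its rise is a description. How far other genes of this list go with that choice was not tested. Cdkn2c was named after its values were seen. Its relative Cdkn2d was at 130.0, 138 and 124 against 34.2, 32.8 and 29.6 CPM (log2 1.96 ± 0.063), and the kinase Cdk4 at 457, 445 and 445 against 358, 357 and 358 CPM (log2 0.27 ± 0.044). In contrast, Cdkn1c, encoding the inhibitor p57, was at 1354, 1367 and 1321 against 1936, 1998 and 2028 CPM (log2 −0.62 ± 0.025). Cyclin D2, Ccnd2, was at 257, 253 and 295 against 407, 398 and 431 CPM (log2 −0.68 ± 0.048), and Ccnd3 (log2 −0.49) and Ccnd1 (−0.22) fell too. The classes did not overlap for these 7 called genes, as for 51.5% of all genes tested.

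Matrix genes differed in how far they moved. Of 6 fibrillar collagens 1 rose and 3 fell, with a median log2 fold change of −0.09, where 22.6% of all genes tested rose and 20.3% fell. Col1a1 stood at 11242, 10236 and 10831 against 11533, 11260.2 and 11646 CPM (log2 −0.15 ± 0.013), Col3a1 at log2 −0.21 and Col5a2 at log2 −0.14. These turned to 0.074 (Col1a1), 0.0088 (Col3a1) and 0.070 (Col5a2) against resting cells chosen by Col1a2 and the cycle genes alone. Dcn and Lum turned likewise from −0.21 and −0.18 to 0.068 and 0.10, so no direction is drawn for these 5 genes.

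Of 14 elastic fibre and microfibril genes 10 fell and 2 rose (median log2 fold change −0.44), where 20.3% of all genes tested fell and 22.6% rose. Elastin, Eln, was at 107, 124 and 146 against 368, 372 and 347 CPM (log2 −1.59 ± 0.075), and the microfibril proteins Mfap4 and Mfap2 at 106, 143 and 172 against 480.1, 457 and 484 CPM (log2 −1.83 ± 0.084) and 840.1, 775 and 859.8 against 1312, 1338 and 1336 CPM (log2 −0.75 ± 0.032). Fibrillin 1, Fbn1, fell less (log2 −0.54 ± 0.052). Of 8 small leucine-rich proteoglycans, which bind collagen fibrils, 6 fell and none rose (median −0.31). Aspn was at 434, 392 and 506 against 1028, 984 and 998 CPM (log2 −1.24 ± 0.049) and Ogn at 305, 299 and 287 against 516, 493 and 522 CPM (log2 −0.84 ± 0.046). Of 15 genes of collagen processing 9 fell and 2 rose (median −0.18), among them the collagen chaperone Serpinh1 (log2 −0.28), and of 11 other collagens 7 rose and 3 fell (median 0.23), Col6a1 among those that fell (−0.41). The matricellular protein periostin, Postn, was at 868, 744 and 855 against 1755, 1632 and 1577 CPM (log2 −1.07 ± 0.035), in a list of 8 of which 5 fell and 1 rose.

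All 10 genes of an imprinted growth network were lower in cycling cells, with a median log2 fold change of −0.56, where 20.3% of all genes tested were lower. The noncoding RNA Meg3 was at 4467, 4829 and 4759.9 against 7304, 8276 and 7751 CPM (log2 −0.79 ± 0.014). Its neighbour Dlk1, a Notch-like membrane protein, was at 4839, 4476 and 4696 against 6956, 7127 and 6938 CPM (log2 −0.65 ± 0.019), and the noncoding RNA H19 at 1812, 1700.0 and 1784 against 3152, 3159.8 and 3099 CPM (log2 −0.89 ± 0.021). Mest (log2 −0.37) and Peg3 (−0.31) fell less. Of 9 genes of the insulin-like growth factor axis 7 fell and none rose (median −0.41). The growth factor Igf1 was at 700.0, 624 and 727 against 933, 989 and 973 CPM (log2 −0.56 ± 0.042), and the binding proteins Igfbp3 (log2 −1.20), Igfbp5 (−0.71), Igfbp4 (−0.52) and Igfbp6 (−0.41) were lower as well.

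Growth arrest and early response genes were mostly lower. Of 10 growth arrest genes 8 fell and 1 rose (median log2 fold change −0.43), where 20.3% of all genes tested fell and 22.6% rose. Gas1, a membrane protein first known from arrested fibroblasts, was at 84.2, 86.9 and 90.1 against 285, 268 and 282 CPM (log2 −1.74 ± 0.061) and Txnip, a thioredoxin inhibitor, at 73.7, 75.3 and 62.4 against 172, 168 and 164 CPM (log2 −1.32 ± 0.067). The factors Klf4 (log2 −1.26) and Klf2 (−0.54) fell as well. Of 12 immediate early and stress genes 9 fell and none rose (median −0.29), among them Ier2 (log2 −0.42), Junb (−0.38), Fos (−0.31) and Jun (−0.30).

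Glycolysis genes split, with 6 of 11 higher and 2 lower (median log2 fold change 0.37), where 22.6% of all genes tested were higher and 20.3% lower. Gapdh was at 768, 782 and 783 against 573, 576 and 582 CPM (log2 0.37 ± 0.035) and Pgam1 at 249, 243 and 257 against 163, 173 and 165 CPM (log2 0.52 ± 0.056), and Pkm rose too (log2 0.37). Aldoa, the aldolase of the same pathway, fell, at 244, 257 and 277 against 442, 442 and 446 CPM (log2 −0.84 ± 0.049). Of 12 ribosome biogenesis genes 5 rose and 3 fell (median 0.11), with nucleolin, Ncl, at log2 0.19 and nucleophosmin, Npm1, at log2 −0.33. Of 9 hedgehog and Wnt genes 2 rose and 6 fell (median −0.28). Ptch1, the hedgehog receptor and a target of the pathway, was at 299, 343 and 348 against 175, 191 and 198 CPM (log2 0.75 ± 0.052). No activity of the pathway is read from this gene alone. Of 9 growth factor receptors 2 rose and 2 fell, near the shares of all genes tested (22.6% higher and 20.3% lower), so nothing is drawn for this list.

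Markers of other cell types moved unevenly between the classes. Of 7 Schwann genes 3 rose and 3 fell, where 22.6% of all genes tested rose and 20.3% fell. The Schwann list summed to 876, 1133 and 977 CPM in cycling and 1646, 1684 and 1699 CPM in resting cells. Each of the 7 was detected in every sum. Of 6 immune genes 3 rose, and the list summed to 149, 110.4 and 226 CPM against 97.6, 114 and 61.1 CPM, with 77.6 to 88.9% of these UMIs of the cycling cells in 5 cells of each library. Haemoglobin genes and Alas2 summed to 1753, 53.0 and 2709.5 CPM in cycling and 6.50, 615 and 550.4 CPM in resting cells, and 5 cells held at least 90.2% of them in each cycling sum. Endothelial genes summed to 119.8, 126 and 121 against 117, 113 and 117 CPM, mural genes to 157, 175 and 189 against 321, 227 and 261 CPM and adipocyte genes to 59.9, 54.2 and 66.5 against 86.9, 79.9 and 81.6 CPM. Skeletal muscle genes stayed under 6 CPM and tendon and cartilage genes under 12 CPM in each sum. Of 15 mitochondrial genes tested 13 were higher in cycling cells, where 22.6% of all genes tested were higher. With cells of under 10% mitochondrial counts alone 40.7% of all genes passed in either direction, against 42.9% with all cells.

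Because cycling cells were unevenly spread over the layers, the same test was run within each nearest profile, an alternative chosen after seeing the data. Over all genes outside the rule 24.7% passed within the endoneurial (14.3% higher and 10.4% lower), 33.7% within the perineurial (18.1% and 15.6%) and 10.7% within the epineurial profile (6.61% and 4.11%). Outside the cycle lists, 580 genes passed in all 3 in the same direction, 359 higher and 221 lower. Those lists do not hold every cycle gene, and genes such as Aspm and Cdkn2c go with the choice of the cells in each profile. Whether Cdkn2d and Lockd do so was not tested. Cdkn2c was higher in each (log2 3.45 ± 0.16, 3.48 ± 0.13 and 4.19 ± 0.28 in the order endoneurial, perineurial, epineurial), as were Cdkn2d (2.09, 1.77 and 2.18), Aspm (6.90, 6.85 and 7.26), Lockd (4.54, 4.40 and 5.36) and Pgam1 (0.21, 0.62 and 0.48). Tcp11l2 was lower in each (−2.80 ± 0.28, −2.49 ± 0.27 and −3.01 ± 0.50). The same held for Plac8 (−2.18, −1.41 and −0.81), Meg3 (−0.40, −0.60 and −0.90), H19 (−0.27, −0.55 and −0.58), Ogn (−0.56, −1.10 and −0.79), Igfbp5 (−0.56, −0.67 and −0.53), Igfbp3 (−0.33, −0.92 and −0.83), Aldoa (−0.87, −0.81 and −1.28), Klf4 (−0.44, −0.58 and −0.49) and Klf2 (−0.32, −0.44 and −0.72).

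Other differences of the pooled comparison were not called within each layer, and differences between the profiles were not tested. Of the 12 epineurial genes, 3 were lower and none higher within the epineurial profile (median log2 fold change −0.30), namely Pi16 (−0.66 ± 0.12), Clec3b (−0.49 ± 0.088) and Mfap5 (−0.32 ± 0.084). Ly6a (−0.075 ± 0.085) and Ly6c1 (−0.099 ± 0.13) did not pass there. Within the endoneurial profile Mfap5 (0.67 ± 0.10) and Igfbp6 (0.31 ± 0.10) were higher in cycling cells, against falls in the pooled test. Like other abundant genes outside the seed, rule and cycle genes, both also helped to place the cells. Endoneurial seed genes summed to 524, 531 and 501 CPM in cycling and 610, 623 and 607 CPM in resting cells nearest the endoneurial profile. Nearest the perineurial profile they summed to 91.3, 94.1 and 113 against 67.6, 67.7 and 64.5 CPM. Whether cells of the 2 classes were placed alike was not tested. Sox9 was higher within the perineurial profile (0.64 ± 0.14) and had −0.041 ± 0.077 within the endoneurial one. Aspn, Postn, Dlk1 and Txnip had log2 fold changes of 0.18, 0.0075, −0.013 and 0.15 within the endoneurial profile, none past the test, and passed as lower within the other two. Gas1 (−1.32 ± 0.10) and Eln (−0.88 ± 0.093) passed as lower within the perineurial profile and did not pass within the other two. Ptch1, higher in the pooled test, had 0.042 ± 0.35 within the epineurial profile and did not pass there. Ccnd2 fell within the endoneurial (−1.13 ± 0.062) and perineurial profiles (−0.74 ± 0.068) and had −0.40 ± 0.19 within the epineurial one, whose sums rest on 21 to 25 cycling cells per library.

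The pooled counts of several gene lists were larger than those within layers, where fewer cells were summed. In the order endoneurial, perineurial and epineurial profile, the elastic fibre and microfibril list had 1 lower and 3 higher of 13 (median 0.015), 8 lower and 2 higher of 13 (median −0.31) and 3 lower and 0 higher of 14 (median −0.24). The imprinted growth list had 5 lower and 0 higher of 10 (median −0.17), 7 lower and 0 higher of 10 (median −0.43) and 3 lower and 0 higher of 10 (median −0.30). Growth arrest genes had 3 lower and 1 higher of 10 (median −0.20), 6 lower and 1 higher of 10 (median −0.33) and 4 lower and 1 higher of 10 (median −0.47). Small leucine-rich proteoglycans had 3 lower and 0 higher of 7 (median −0.17), 6 lower and 0 higher of 8 (median −0.53) and 3 lower and 0 higher of 6 (median −0.33), and the insulin-like growth factor axis had 6 lower and 1 higher of 9 (median −0.20), 6 lower and 0 higher of 9 (median −0.42) and 4 lower and 0 higher of 9 (median −0.30). The early response and stress list had 7 lower and 0 higher of 11 (median −0.28), 7 lower and 0 higher of 12 (median −0.26) and 4 lower and 0 higher of 11 (median −0.32), and glycolysis genes had 1 lower and 3 higher of 11 (median 0.10), 1 lower and 5 higher of 11 (median 0.21) and 1 lower and 2 higher of 9 (median 0.066). None of these 7 lists was lower in most of its tested members in each of the 3 profiles.

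**Figure D4:**
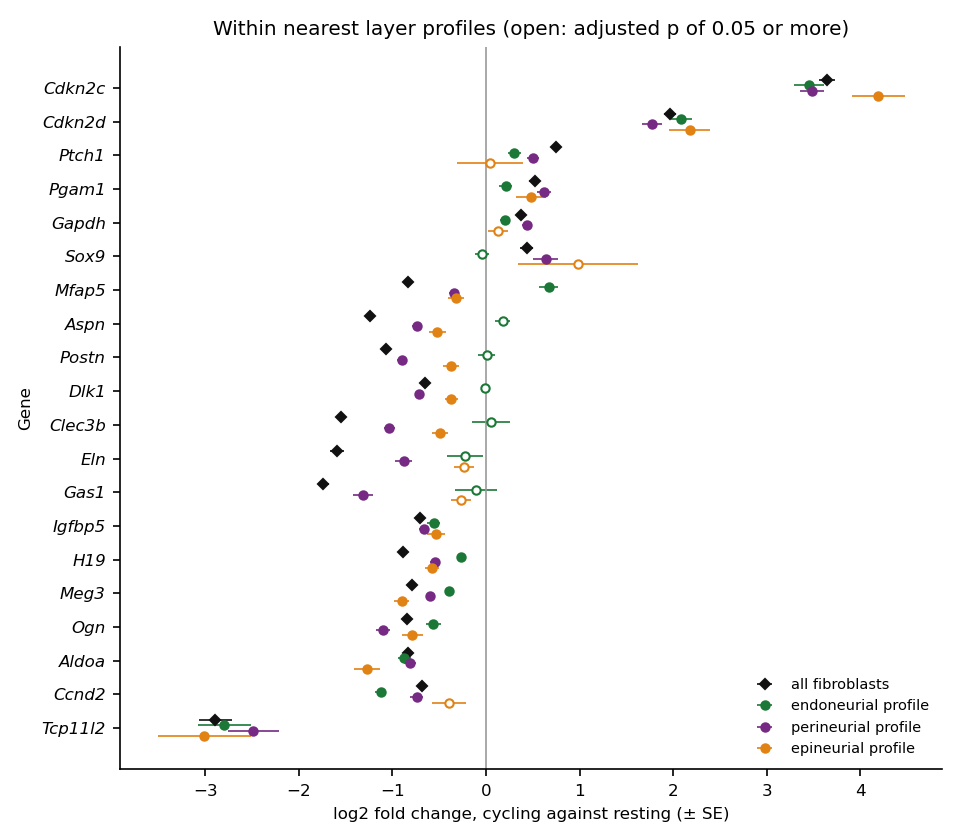
Log2 fold change (± SE) of cycling against resting cells for 20 genes, over all fibroblasts (diamonds) and within each nearest layer profile (circles, filled where the adjusted p is under 0.05). Cdkn2c, Cdkn2d and Tcp11l2 lie on one side of 0 in each profile, and Mfap5 lies right of 0 in the endoneurial profile and left of it in the other two.

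By a split at a share of 0.5, most cycling cells leaned to G2/M, which is a description. The 4 cycle genes that chose the cells are in the G2/M list and none is in the S list, and how far that choice sets the leaning was not tested. The share of G2/M-list UMIs among S-list and G2/M-list UMIs, at 2000 UMIs per cell, was 0.5 or more in 229 of 267, 272 of 317 and 259 of 317 scored cells (84.4% ± 2.36, SD, n = 3 libraries). With the 4 genes left out of the list, an alternative chosen after seeing the data, it was so in 82.8, 78.5 and 78.9% (80.1% ± 2.35). The remaining 141 cells leaned to S phase, 20 cells were too shallow to score, and 165 of the 901 scored cells lay within 0.1 of the split. Resting cells, also thinned to 2000 UMIs, held 1063, 1023 and 1048 CPM of the G2/M list. Their S list stood at 681, 699 and 710 CPM, so 0.5 is not a neutral split. Cycling cells held 11786.5, 12330 and 11006 CPM of the G2/M list and 3485, 3410 and 3538 CPM of the S list. A split set by the resting cells was not tested. S-leaning cells had more UMIs (medians 12021, 9455 and 11392) than G2/M-leaning cells (8803, 7431 and 7684). By nearest profile, 84.6, 85.2 and 80.4% of endoneurial, 88.7, 86.0 and 84.4% of perineurial and 71.4, 88.0 and 72.7% of epineurial cycling cells leaned to G2/M, overlapping ranges.

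Between the phase classes, 765 of 9151 genes outside the rule and the cycle lists passed edgeR's test with the library as a block (8.36%, with 3.16% higher and 5.2% lower in G2/M-leaning cells). The count was 286 without replicate 1, 160 with DESeq2 and 751 with the genes of the rule left out of the G2/M list. Tuba1c, an alpha-tubulin, was at 161, 177 and 132 against 16.9, 9.80 and 24.7 CPM in G2/M-leaning against S-leaning sums (log2 3.05 ± 0.22), and Arl6ip1, a membrane-shaping protein of the endoplasmic reticulum, at 544, 606 and 487 against 91.7, 85.8 and 88.8 CPM (log2 2.58 ± 0.11). Aspm (log2 3.04), Miip (2.82), Sapcd2 (2.69), Lockd (2.48) and Kpna2 (2.40) were also among the 10 largest rises, with 3 haemoglobin genes whose UMIs lay in a few cells. Genes that follow the phase, such as Aspm, go with the split by the G2/M list even where the lists do not hold them. How many of the 765 do so was not tested, so rises and falls between the phase classes are given as a description. Slfn9 was lower in G2/M-leaning cells, at 39.4, 36.9 and 25.6 against 135, 85.8 and 100.4 CPM (log2 −1.69 ± 0.18), and so was the histone acetyltransferase Hat1, at 83.2, 82.4 and 81.7 against 210.0, 220.5 and 194 CPM (log2 −1.35 ± 0.12). Zfp367 (log2 −1.63), the centromere protein Cenps (−1.60) and the mismatch repair protein Msh6 (−1.41) were among the largest falls, of which Msh6 was not called by DESeq2 or without replicate 1.

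The D cyclins were higher in S-leaning cells. Ccnd2 was at 220.4, 218 and 247 against 437, 441 and 457 CPM in G2/M-leaning against S-leaning sums (log2 −0.98 ± 0.086), where resting cells held 407, 398 and 431 CPM. Ccnd1, at 271, 246 and 267 against 485, 431 and 426 CPM (log2 −0.79 ± 0.085), and Ccnd3 (log2 −0.73) had the same order. Cdkn2c was higher in G2/M-leaning cells, at 165, 151 and 148 against 74.8, 49.0 and 46.1 CPM (log2 1.45 ± 0.16), and so was Cdkn2d (log2 1.13 ± 0.16). Of 8 small leucine-rich proteoglycans 4 were lower and none higher in G2/M-leaning cells, with Ogn at 286, 269 and 248 against 401, 475 and 419.5 CPM (log2 −0.72 ± 0.089) and Aspn at log2 −0.58. Of 10 imprinted growth genes 4 were lower and none higher, among them H19 (log2 −0.38) and Dlk1 (−0.26). Col1a1 (log2 0.059 ± 0.041) and Col3a1 (0.069 ± 0.043) did not pass. Ptch1 was higher in G2/M-leaning cells, at 323, 354 and 379.5 against 183, 235 and 239 CPM (log2 0.66 ± 0.095), a call lost when cells were split at the median share (log2 0.095, adjusted p = 0.536 by edgeR).

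**Figure D5:**
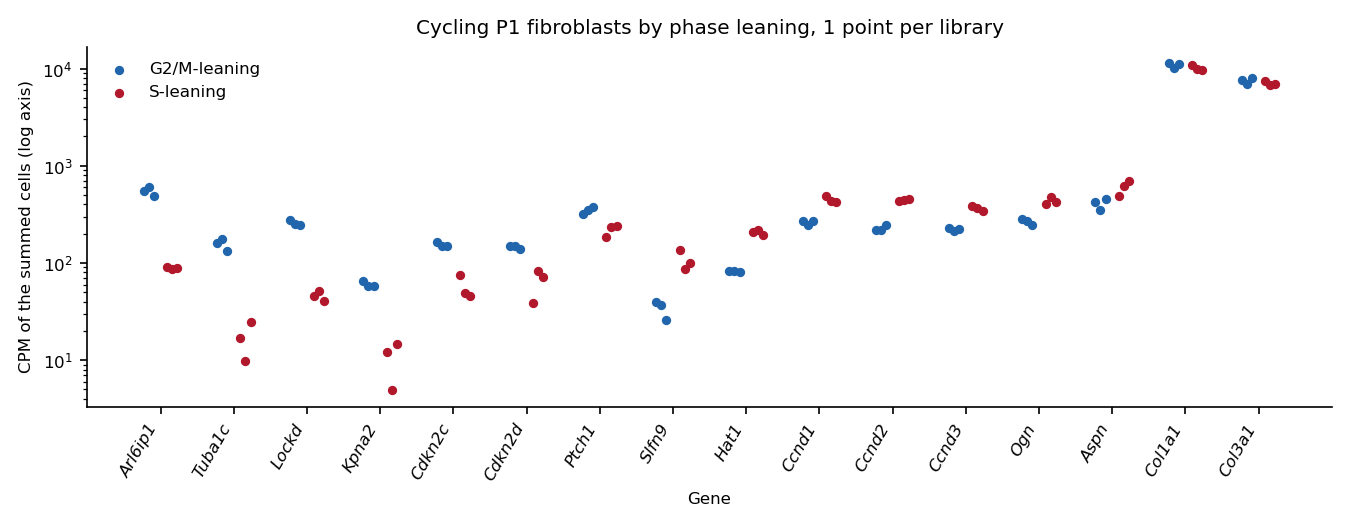
CPM per library (log axis) of 16 genes in G2/M-leaning and S-leaning cycling P1 fibroblasts. Arl6ip1, Tuba1c and Cdkn2c are higher in the G2/M-leaning points and the D cyclins in the S-leaning points, and the points of Col1a1 and Col3a1 overlap.

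Cycling Schwann cells of the same suspensions were few, with 16, 11 and 8 cells against 147, 171 and 154 resting Schwann cells (at least 2 UMIs of Sox10 and under 10 of Col1a2). The shift from resting to cycling cells differed between the cell types for 841 of 10877 genes by edgeR's interaction term (7.73%, with 6.64% higher and 1.09% lower in fibroblasts). The split of those calls moved with the setting, from 85.9% higher with TMM to 56.3% with RLE size factors, 39.6% with DESeq2 and 58.1% with Schwann cells taken at 1 or more UMIs of Sox10, and the median over all genes was 0.47, so no direction is drawn from it. Ptn, the growth factor pleiotrophin, was at 213, 240.3 and 224 CPM in cycling and 310.3, 319.9 and 343 CPM in resting fibroblasts. In Schwann cells it was at 719, 904 and 1179.5 CPM in cycling and 183, 106 and 123 CPM in resting cells, the opposite order (difference of log2 fold changes −2.86 ± 0.18, adjusted p = 3.82e-25 by edgeR). Postn had the same opposition (difference −2.58 ± 0.16), with 879.6, 476 and 845 CPM in cycling and 248, 161 and 169 CPM in resting Schwann cells. This sets Schwann cells against fibroblasts of all layers pooled. Within the endoneurial profile alone Postn had a log2 fold change of 0.0075 ± 0.089 in fibroblasts, while it passed as lower within the perineurial and epineurial profiles.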

How the data were processed

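Single cells of mouse sciatic nerve from 3 P1 and 3 P60 libraries were analysed, and the comparisons use the P1 libraries. The deposited values are raw UMI counts per gene and barcode, which the authors made with Cell Ranger 2.0.2 on GRCm38.p5 per the submitters' processing notes, whereas the methods name a human build. The authors' limit of 500 to 5000 detected genes was applied, which leaves out larger barcodes, and no doublet caller was run. Cycling and resting cells of a library share its suspension and run, so the library was a block. Nothing ties a cell to an animal, and n counts libraries. Counts were summed per library and class, filtered with filterByExpr, scaled by TMM and tested with edgeR 4.0.16 (quasi-likelihood, Benjamini-Hochberg threshold 0.05) in R 4.3.3, with DESeq2 1.42.0 as an alternative. Shares, thinning and scores used Python 3.11.15. The layer profiles were nearest by multinomial likelihood with a pseudocount of 0.5. Named genes were the rule and marker genes, the layer lists, up to 6 members of each other list with the highest mean CPM, and in each comparison the 10 genes with the largest change in each direction among those called, alike in sign in all 3 libraries and at a mean of at least 20 CPM, outside the cycle lists. Only some of those genes are printed. The cells, lists and tests were chosen with earlier results of these data known. The scripts were tested on simulated data. Of 41605 gene identifiers 41435 matched GENCODE M21, and the reads were counted by gene without a split of overlapping genes.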

Additional observations from a re-analysis of the deposited data

Results flagged for a closer look

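The shift from resting to cycling cells differed between fibroblasts and Schwann cells for 841 genes by edgeR's interaction term, from 35 cycling Schwann cells in 3 libraries. Ptn had a difference of −2.861 on the log2 scale and Postn one of −2.578, and for both the pooled fibroblasts fell in each library while the Schwann cells rose. Within the endoneurial profile alone Postn did not fall in fibroblasts (log2 0.0075).

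Within the nearest layer profiles, Mfap5 had a log2 fold change of 0.672 in endoneurial cells and moved the other way in each library of the epineurial (−0.32) and the perineurial profile (−0.35). Osr2 had −0.249 within the endoneurial and 0.62 within the perineurial profile, again opposite in each library. The differences between the profiles were not tested. Mfap5 is among the genes that placed the cells, and Osr2 is a seed gene of the endoneurial profile.

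At P60, 15 cells met the limits for cycling fibroblasts, 7, 4 and 4 in replicates 1 to 3, and enter no comparison of genes.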

How the results depend on the processing

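The count of 5402 genes between cycling and resting fibroblasts was 2790 with DESeq2 and 3593 against resting cells matched on UMIs. Within a profile it was 2571 (endoneurial), 3485 (perineurial) and 985 (epineurial), and 2453, 2682 and 942 for cells under 10% mitochondrial counts and under 10 Schwann UMIs, where fewer cells were summed. It was 4543 to 4783 when 1 replicate was left out. The 765 genes between phase classes became 160 with DESeq2 and 286 to 626 when 1 replicate was left out, 286 being without replicate 1. The 841 genes of the interaction became 417 with DESeq2, 513 with RLE size factors and 458 to 603 when 1 replicate was left out, where 1 library fewer was fitted. Of these, 458 was without replicate 3 and 463 without replicate 2. The cause of the DESeq2 and RLE changes was not tested.

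The library pairs the classes by design. With no replicate block the 3 counts were 5217, 672 and 745 and the differences in leaning were 7.53, 5.36 and −18.8 points, and no named gene lost its call.

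The endoneurial leaning turned to −3.56 points against resting cells matched on UMIs, and the epineurial one shrank to −10.4 points. When 1 replicate was left out, the leaning differences ranged from 5.86 to 9.52 (endoneurial), 4.24 to 6.79 (perineurial) and −19.9 to −18.2 points (epineurial). The endoneurial minus epineurial cycling share of 15.9 points became 12.9 by list score, 13.5 without mitochondrial-rich and Schwann-positive cells and 13.9 under 10% mitochondrial counts (15.4 to 16.7 with 1 replicate left out). The perineurial minus epineurial share of 17.7 became 13.2, 13.6 and 14.7 (17.2 to 18.1), and the endoneurial minus perineurial share of −1.73 became −0.081 without mitochondrial-rich and Schwann-positive cells (−2.42 to −0.959).

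For 114 named genes, 1790 values kept direction and call, 140 kept direction and lost the call and 43 called values changed sign. The last were, on the log2 scale, within the endoneurial profile Aspn 0.18, Clec3b 0.055, Dpp4 0.44, Etv1 −0.046, Fbn1 0.15, Igfbp6 0.31, Mfap5 0.67, Postn 0.0075, Sema3c 0.088, Slc2a1 −0.14, Sox9 −0.041, Tnxb 0.18 and Txnip 0.15. With the limits on mitochondrial and Schwann UMIs added they were Aspn 0.26, Clec3b 0.17, Dlk1 0.035, Dpp4 0.34, Etv1 −0.084, Fbn1 0.14, Igfbp6 0.36, Mfap5 0.78, Postn 0.021, Slc2a1 −0.23, Sox9 −0.029, Tnxb 0.12 and Txnip 0.25. Within the epineurial profile they were Etv1 −0.49 and Ncl −0.030 (with those limits −0.45 and −0.037), and within the perineurial profile Dpp4 0.17 and Lum 0.12 (with those limits 0.16 and 0.15, and Itgb4 −0.19). Resting cells chosen by Col1a2 and the cycle genes alone gave Col1a1 0.074, Col3a1 0.0088, Col5a2 0.070, Dcn 0.068 and Lum 0.10. Resting cells matched on UMIs gave Slc2a1 −0.037 and Sox9 −0.011, and cells with few UMIs of other cell types Col2a1 0.077. The cause of these changes was not tested. The fits within profiles, the further settings of the cycling share by layer, the looser Schwann limit and the G2/M list without the genes of the rule were chosen after seeing the data. Cells of the epineurial profile and S-leaning cells gave the smallest sums, which limits what could be called in them.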
